A study of Rattus norvegicus with 24 samples.

Results

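Lungs of rats with massive brain damage on gentle ventilation were set against lungs of rats with an intact brain on high stretch ventilation, to ask which transcripts told the remote injury from the local one. The tested lungs carried brain damage (BD) and were ventilated with low tidal volume and open lung positive end-expiratory pressure (BD LVT/OLPEEP, named best PEEP in the labels), and the other lungs came from rats without brain damage (NBD) on high tidal volume and low PEEP (NBD HVT/LPEEP, named HT in the labels). Each group held 6 rats, with 1 array per rat, so 12 of the 24 arrays of the series entered this comparison. The remaining 12 arrays were from 6 BD HVT/LPEEP and 6 NBD LVT/OLPEEP rats, which served for the shared spread and for side-by-side values. All were adult male Wistar rats, anaesthetised with ketamine and xylazine and ventilated for 6 h, at 6 mL/kg in the LVT/OLPEEP groups and at 12 mL/kg in the HVT/LPEEP groups. BD rats had a balloon catheter inflated in the epidural space, and the LVT/OLPEEP rats had a recruitment manoeuvre and a faster respiratory rate. The study also reports that BD LVT/OLPEEP rats received more fluid than NBD HVT/LPEEP rats. It reports lower final arterial pressure in each BD group than in the NBD group on the same ventilation. The 2 groups therefore differed at once in brain damage, skull surgery, tidal volume, PEEP, recruitment manoeuvre, respiratory rate and fluid. The parts of these in any difference between them cannot be told apart within this pair. Some BD HVT/LPEEP rats on the arrays did not survive the full period according to the methods, and the labels do not say which. The study also reports a death in NBD HVT/LPEEP and none in BD LVT/OLPEEP. By its methods the non-survivors of the other groups were left out, so the NBD HVT/LPEEP arrays were from survivors.

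A sudden rise in intracranial pressure is known to release catecholamines and to disturb the hypothalamus and pituitary, which normally drive the adrenal output of glucocorticoids. Glucocorticoids enter cells, bind their receptor and switch on a well-known set of transcripts in lung, among them Fkbp5, Tsc22d3, Per1 and Zbtb16. Overdistension acts on the lung from the airspace side and is known to activate mechanically sensitive transcription through YAP and SRF, with connective tissue growth factor among the best-known targets.

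The value of each of 19239 features was a quantile-normalized log2 value between 5.73 and 14.53, and 16592 features carried 1 gene symbol. The lung epithelial gene Sftpc, which encodes a surfactant protein of alveolar type II cells, lay between 14.27 and 14.33 in BD LVT/OLPEEP and between 14.24 and 14.41 in NBD HVT/LPEEP. These values were near the top of the scale, where quantile-normalized values leave little room for a difference to show. None of the 14 measured alveolar type I markers, 14 alveolar type II markers and 18 capillary endothelium markers passed the test between the groups. In bulk tissue, fewer cells of a type and less RNA per cell cannot be told apart. Arrays stood apart in both groups. BD LVT/OLPEEP replicate 16 had a mean correlation of 0.955 with the other arrays of its group, where the other arrays of that group had 0.969 to 0.975. The mean deviation of 22 measured skeletal muscle markers from their average over the 24 arrays was 3.12 (log2) in this rat, against at most 0.10 in the other rats of that group and at most 0.25 in NBD HVT/LPEEP. Myl1, a fast muscle myosin light chain, had a value of 13.46 in this rat, whereas the other rats of the group lay between 7.67 and 7.85. NBD HVT/LPEEP replicate 12 had a mean correlation of 0.951 with its group, where the others had 0.973 to 0.977. The mean deviation of immediate early genes was 0.54 in this rat, and the next rat of that group lay at 0.06. The same rat was the lowest of its group for alveolar type I markers (-0.34, the others at least -0.04). It was the highest for platelet markers (0.74, the others at most 0.12) and for monocyte and macrophage markers (0.37, the others at most 0.10). For neutrophil markers it was also the highest (0.38, the others at most 0.28). NBD HVT/LPEEP replicate 34 had high cardiac muscle markers, with a mean deviation of 1.39 where the others of that group lay between -0.46 and -0.35, and BD LVT/OLPEEP replicate 20 was at 0.87. No muscle marker passed the test between the groups, and the median difference of the 22 skeletal muscle markers was 0.67 with all arrays and 0.006 without replicate 16.

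**Figure D1:**
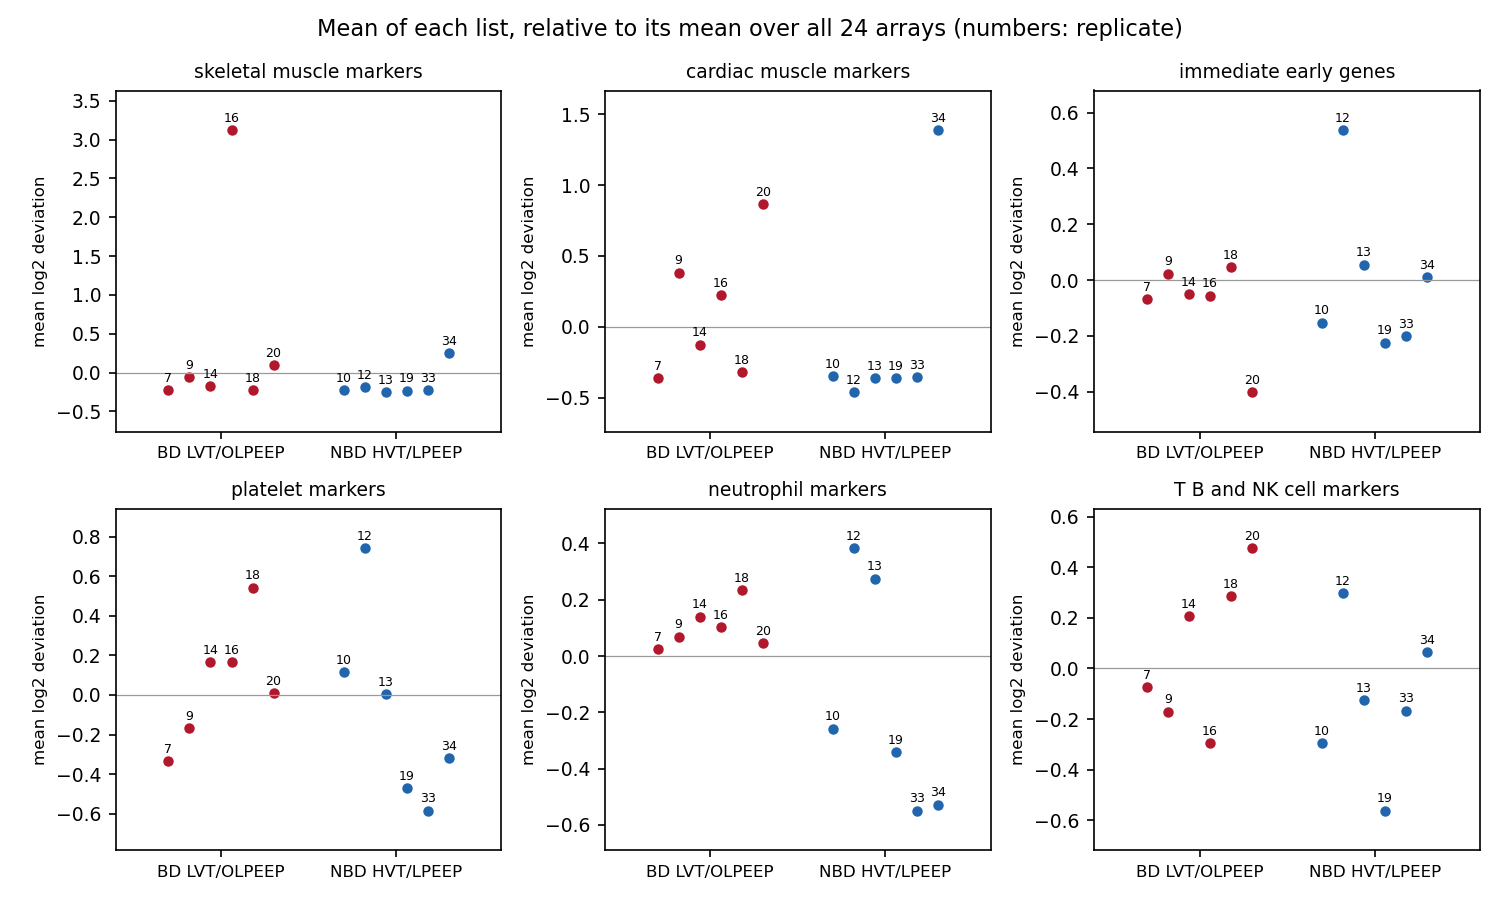
Mean log2 deviation of 6 marker and gene lists on each array, as points numbered by replicate, for BD LVT/OLPEEP (left in each panel) and NBD HVT/LPEEP (right). The skeletal muscle mean of 3.12 in BD LVT/OLPEEP replicate 16 and the immediate early mean of 0.54 in NBD HVT/LPEEP replicate 12 stand away from the other arrays of their groups.

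Most of the difference between the groups consisted of transcripts that were lower in BD LVT/OLPEEP. With limma, 47 features were higher in BD LVT/OLPEEP than in NBD HVT/LPEEP (0.244% of those tested) and 182 were lower (0.946%), at an adjusted p under 0.05. The 229 features together were 1.19% of all features, and their median absolute difference was 0.46 on the log2 scale. Of these, 12 of the higher and 47 of the lower features differed at least 1.5-fold. With Holm's correction 0 features were higher and 25 were lower. The values of the 2 groups did not overlap for 200 features (1.04%), with 58 higher (0.301%) and 142 lower (0.738%) in BD LVT/OLPEEP, and 111 of the called features were among them. The largest rises and falls named below were picked among called features without overlap, so their lack of overlap follows from that choice. Over all features the median difference was -0.005. The counts depended on single arrays, since 123 features were called without BD LVT/OLPEEP replicate 16 (116 of them among the 229), 199 without NBD HVT/LPEEP replicate 12 (153 among the 229) and 93 without both (77 among the 229). Arrays that did not stand apart moved them more, to 86 without BD LVT/OLPEEP replicate 14 and to 402 without NBD HVT/LPEEP replicate 10. With only the 12 arrays compared, 49 features were called, 5 higher and 44 lower.

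**Figure D2:**
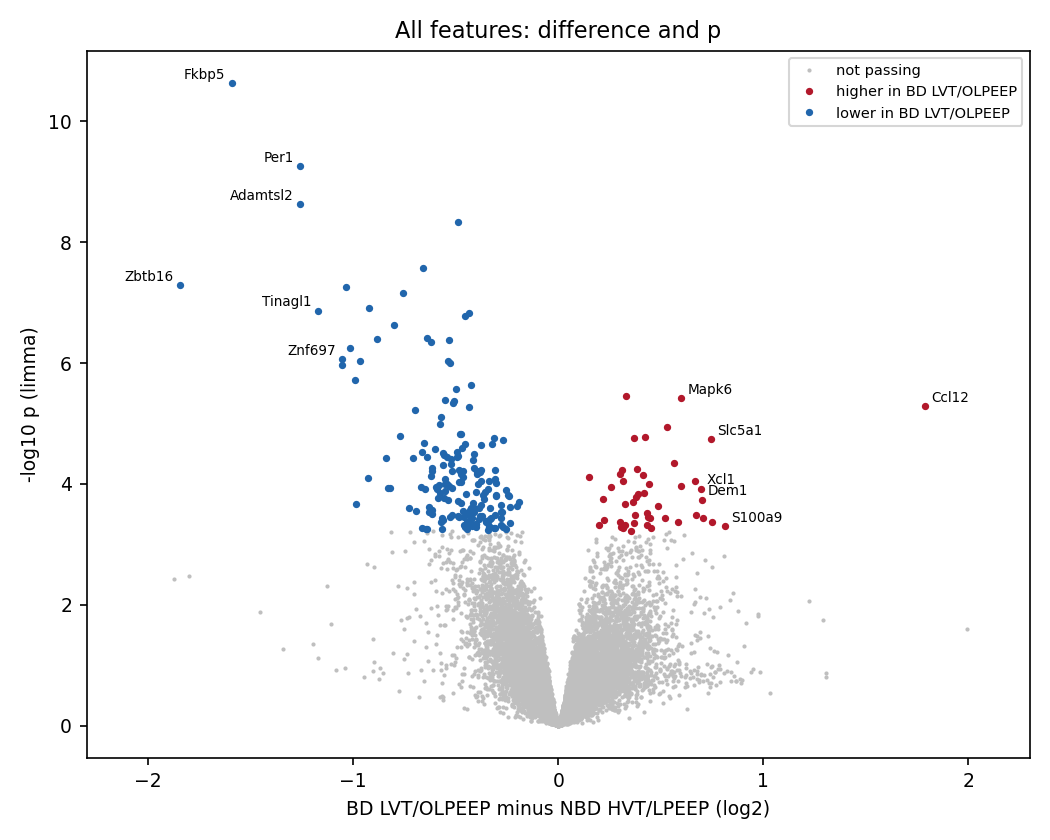
Difference between BD LVT/OLPEEP and NBD HVT/LPEEP (log2, horizontal) and -log10 of limma's unadjusted p (vertical) for 19239 features, with the 47 higher features in red, the 182 lower ones in blue and the 6 largest called, non-overlapping differences of each direction named. Fkbp5 lies highest on the page at a difference of -1.59, and Ccl12 farthest to the right among called features at 1.79.

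Among the gene lists, that of glucocorticoid-induced genes had the largest share of called members. The lists were chosen with earlier results of these data known, so this share is a description and was not tested. Of 30 genes in the list 26 were measured, and 9 of them were lower (34.6%, beside 0.946% of all features), 0 were higher and 17 did not pass. The median difference of the list was -0.31, and 22 of the 26 values were below 0. Without BD LVT/OLPEEP replicate 16 the median was -0.52 and 7 members were lower, without NBD HVT/LPEEP replicate 12 there were 9, and without both there were 6.

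Zbtb16, which encodes the transcriptional repressor PLZF, had the largest fall among called features. Its log2 values in BD LVT/OLPEEP were 8.89 at the lowest, 9.68 at the median and 10.29 at the highest, against 10.36, 11.61 and 11.91 in NBD HVT/LPEEP. The groups did not overlap, although the lowest NBD HVT/LPEEP rat, replicate 12, lay close to the highest BD LVT/OLPEEP rat. The difference was -1.85 (SE 0.23, 3.59-fold lower, adjusted p = 0.000153). Fkbp5, whose product is an HSP90 co-chaperone that lowers the hormone affinity of the glucocorticoid receptor, had the smallest p of all features. Its values were 9.55, 9.70 and 10.27 (lowest, median and highest) in BD LVT/OLPEEP and 11.12, 11.42 and 11.82 in NBD HVT/LPEEP. The groups were separated by a clear gap, and the difference was -1.59 (SE 0.13, 3.02-fold lower, adjusted p = 4.44e-07). Per1, a core repressor of the circadian clock that glucocorticoids also induce, had values of 10.03, 10.38 and 10.71 in BD LVT/OLPEEP and of 11.42, 11.66 and 11.78 in NBD HVT/LPEEP. All BD LVT/OLPEEP rats were again below all NBD HVT/LPEEP rats (difference -1.26, SE 0.12, adjusted p = 5.27e-06). Of the 16 measured circadian clock genes Per1 was the only one called, the median difference of that list was 0.10, and Per3 differed by 0.44 (SE 0.20, adjusted p = 0.313).

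The other called members of the list act in signalling and stress control. Map3k6, a kinase upstream of JNK and p38, fell by 1.05 (log2, SE 0.16, adjusted p = 0.000884) and did not overlap between the groups. Tsc22d3, which encodes the glucocorticoid-induced leucine zipper GILZ, averaged 9.72 ± 0.22 in BD LVT/OLPEEP and 10.69 ± 0.36 in NBD HVT/LPEEP (SD, n = 6 each). It fell by 0.97 (SE 0.14, adjusted p = 0.000853), and 1 NBD HVT/LPEEP rat, replicate 10 at 9.99, lay within the BD LVT/OLPEEP range. Dusp1, a phosphatase that switches off p38 and JNK, had values of 11.86, 12.04 and 12.39 in BD LVT/OLPEEP and of 12.50, 12.69 and 13.19 in NBD HVT/LPEEP. It fell by 0.67 (SE 0.14, adjusted p = 0.0203). Rasd1, a dexamethasone-induced Ras-like protein, fell by 0.55 (adjusted p = 0.0177), and Hif3a, a hypoxia-inducible factor subunit, fell by 0.54 (adjusted p = 0.0268). Ddit4, an inhibitor of mTORC1, fell by 0.57 (adjusted p = 0.0472), but only 1 BD LVT/OLPEEP rat lay below all NBD HVT/LPEEP rats. Hif3a did not pass without BD LVT/OLPEEP replicate 16 (adjusted p = 0.0686), and Ddit4 passed neither without it (0.107) nor without NBD HVT/LPEEP replicate 12 (0.0921). Klf15, another known glucocorticoid target that was not in the list and was chosen after its values were seen, fell by 0.48 (SE 0.10, adjusted p = 0.0184). Members that did not pass included Sgk1, the serum- and glucocorticoid-regulated kinase, at -0.09 (SE 0.09) and Klf9 at -0.30 (SE 0.16). None of the 7 measured genes for steroid receptors and steroid enzymes passed.

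**Figure D3:**
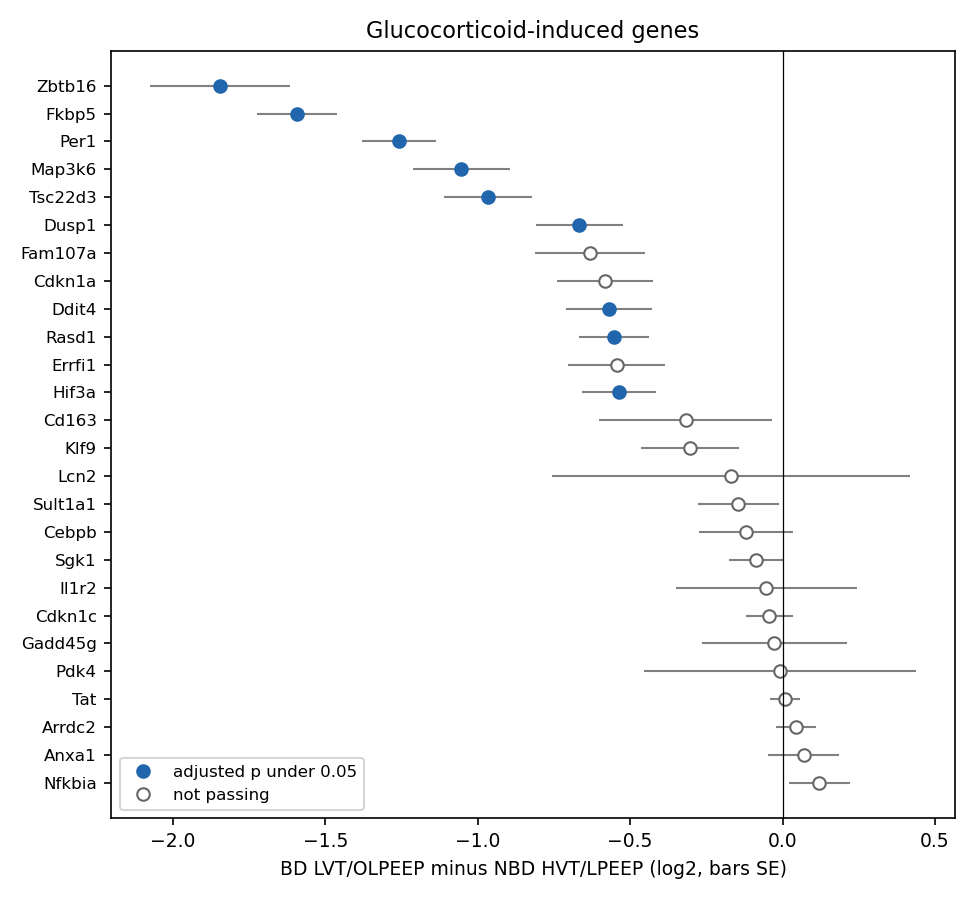
Difference between BD LVT/OLPEEP and NBD HVT/LPEEP (log2, horizontal, bars SE) for the 26 measured glucocorticoid-induced genes, with filled points for the 9 at an adjusted p under 0.05. The values run from -1.85 for Zbtb16 to above 0 for 4 members.

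Promoter windows of these genes were searched for known binding motifs, and 8 of the 9 called members of the list had windows in the RefSeq table (300 bases each, build GRCr8), 11 windows in all. The spaced inverted repeat of the glucocorticoid response element was found in 1 of these windows, in Map3k6, and in 0.439% of 33469 rat promoter windows. The half-site AGAACA was in 0 of the 11 windows and in 20.7% of all windows. Dusp1 held the cAMP response element TGACGTCA, found in 1.83% of all windows, and the E-box CACGTG, found in 6.42%. Both strands were searched for every motif. A match is a description of letters and not of a bound site, and the absence of a match in these short windows says nothing about the receptor. The kappaB motif was found in 1 of the 11 windows, that of Hif3a, which is not shown. The windows of Map3k6 and Dusp1 are shown for their matches to the other motifs, with capitals marking the receptor motif in Map3k6 (chr5:150723995-150724294, plus strand) and the cAMP response element and then the E-box in Dusp1 (chr10:17184603-17184902, plus strand).
Map3k6: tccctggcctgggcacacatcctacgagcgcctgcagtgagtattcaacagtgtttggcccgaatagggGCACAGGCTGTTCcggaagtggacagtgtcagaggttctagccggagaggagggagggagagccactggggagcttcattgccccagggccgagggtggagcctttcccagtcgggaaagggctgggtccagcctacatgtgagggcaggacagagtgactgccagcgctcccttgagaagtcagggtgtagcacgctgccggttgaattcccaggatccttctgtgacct
Dusp1: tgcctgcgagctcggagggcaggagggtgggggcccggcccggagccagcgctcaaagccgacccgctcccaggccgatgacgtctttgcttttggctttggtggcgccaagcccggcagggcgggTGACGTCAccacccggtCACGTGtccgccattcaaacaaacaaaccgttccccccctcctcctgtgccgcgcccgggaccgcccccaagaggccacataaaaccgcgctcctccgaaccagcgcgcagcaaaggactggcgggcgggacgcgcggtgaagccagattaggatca

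Set beside NBD LVT/OLPEEP, the reference ventilation without brain damage, several of these genes had NBD HVT/LPEEP values close to it. Fkbp5 averaged 9.84 ± 0.30 in BD LVT/OLPEEP and 11.43 ± 0.29 in NBD HVT/LPEEP, beside 11.50 ± 0.17 for NBD LVT/OLPEEP (SD, n = 6 each). Relative to NBD LVT/OLPEEP it differed by -1.66 in BD LVT/OLPEEP (SE 0.13, adjusted p = 1.97e-07) and by -0.07 in NBD HVT/LPEEP (SE 0.13, adjusted p = 0.826). For Per1 these differences were -1.21 (adjusted p = 9.91e-06) and 0.05 (adjusted p = 0.872). For Zbtb16 they were -2.25 (adjusted p = 9.91e-06) and -0.41 (adjusted p = 0.371), and for Tsc22d3 they were -1.02 (adjusted p = 0.00072) and -0.06 (adjusted p = 0.87). Map3k6 lay between, with -0.67 in BD LVT/OLPEEP (adjusted p = 0.048) and 0.38 in NBD HVT/LPEEP (adjusted p = 0.267). Rasd1 differed by -0.14 in BD LVT/OLPEEP (adjusted p = 0.68) and by 0.41 in NBD HVT/LPEEP (SE 0.12, adjusted p = 0.253). Dusp1 differed by -0.41 in BD LVT/OLPEEP (adjusted p = 0.224) and by 0.26 in NBD HVT/LPEEP (adjusted p = 0.362). For Ddit4 these differences were -0.53 (adjusted p = 0.0867) and 0.04 (adjusted p = 0.918), and for Hif3a they were -0.90 (adjusted p = 0.000387) and -0.36 (adjusted p = 0.261). Both comparisons share the NBD LVT/OLPEEP arrays. Over all features, 40 were higher (0.208%) and 102 lower (0.53%) in BD LVT/OLPEEP than in NBD LVT/OLPEEP, and 0 passed limma's test in NBD HVT/LPEEP (smallest adjusted p = 0.0789), where 3127 had an unadjusted p under 0.05.

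**Figure D4:**
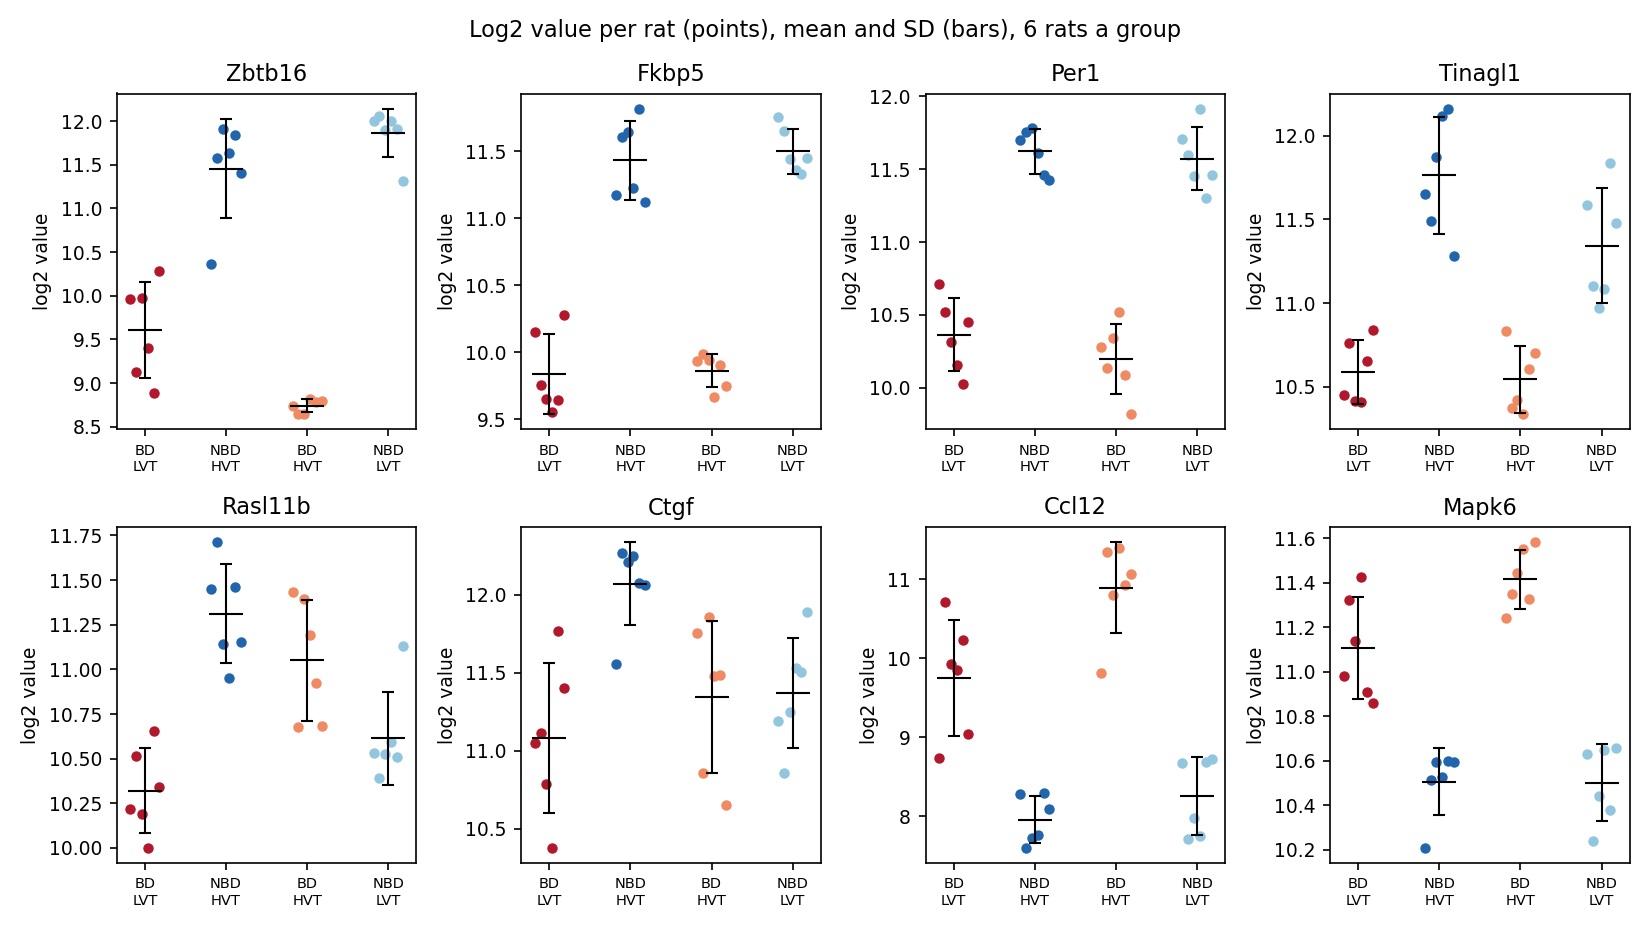
Log2 value of 8 genes in each rat (points), with group mean and SD (bars, n = 6), for BD LVT/OLPEEP, NBD HVT/LPEEP, BD HVT/LPEEP and NBD LVT/OLPEEP. For Fkbp5 and Per1 the BD groups lie together below the NBD groups, whereas Rasl11b and Ctgf are highest in NBD HVT/LPEEP.

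Large falls outside the glucocorticoid list were those of Adamtsl2, Tinagl1 and Gpr182. Adamtsl2, a secreted protein that binds fibrillin microfibrils, had values of 9.28, 9.65 and 9.84 in BD LVT/OLPEEP and of 10.59, 10.77 and 11.27 in NBD HVT/LPEEP. All BD LVT/OLPEEP rats were below all NBD HVT/LPEEP rats, and the difference was -1.26 (SE 0.13, 2.40-fold lower, adjusted p = 1.5e-05). Tinagl1, a basement membrane protein, fell by 1.17 (SE 0.16, adjusted p = 0.00026), with values of 10.41, 10.55 and 10.84 in BD LVT/OLPEEP against 11.28, 11.76 and 12.16 in NBD HVT/LPEEP. Gpr182, a receptor of endothelial cells that scavenges chemokines, fell by 1.02 (SE 0.15, adjusted p = 0.000601). Slc10a6, a transporter of sulfated steroids, fell by 0.80 (SE 0.11, adjusted p = 0.000349). Its 6 values in BD LVT/OLPEEP lay between 9.08 and 9.25, a narrow band below the range of 9.51 to 10.31 in NBD HVT/LPEEP. Igfbp3, a carrier of insulin-like growth factors, fell by 0.82 (SE 0.18, adjusted p = 0.0206), and Pgf, a ligand of VEGF receptor FLT1, fell by 0.49 (adjusted p = 0.0378), which did not pass without BD LVT/OLPEEP replicate 16 or without NBD HVT/LPEEP replicate 12. P4ha2, a prolyl hydroxylase for collagen, fell by 0.49 (SE 0.05, adjusted p = 2.2e-05), and none of 24 measured collagen and matrix genes passed. Slc10a6, Igfbp3 and P4ha2 were chosen after their values were seen. Further large falls without overlap between the groups were those of Znf697 (-1.06), RGD1563692 (now Mab21l4, -1.03), Paqr4 (-0.88) and Moxd1 (-0.84).

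Relative to NBD LVT/OLPEEP, Adamtsl2 differed by -1.14 in BD LVT/OLPEEP (adjusted p = 6.39e-05) and by 0.12 in NBD HVT/LPEEP (adjusted p = 0.674). Slc10a6 differed by -0.92 (adjusted p = 9.62e-05) and -0.12 (adjusted p = 0.606), and Gpr182 by -0.90 (adjusted p = 0.00361) and 0.12 (adjusted p = 0.707). Tinagl1 had values on both sides, with -0.75 in BD LVT/OLPEEP (adjusted p = 0.0217) and 0.42 in NBD HVT/LPEEP (adjusted p = 0.261).

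**Figure D5:**
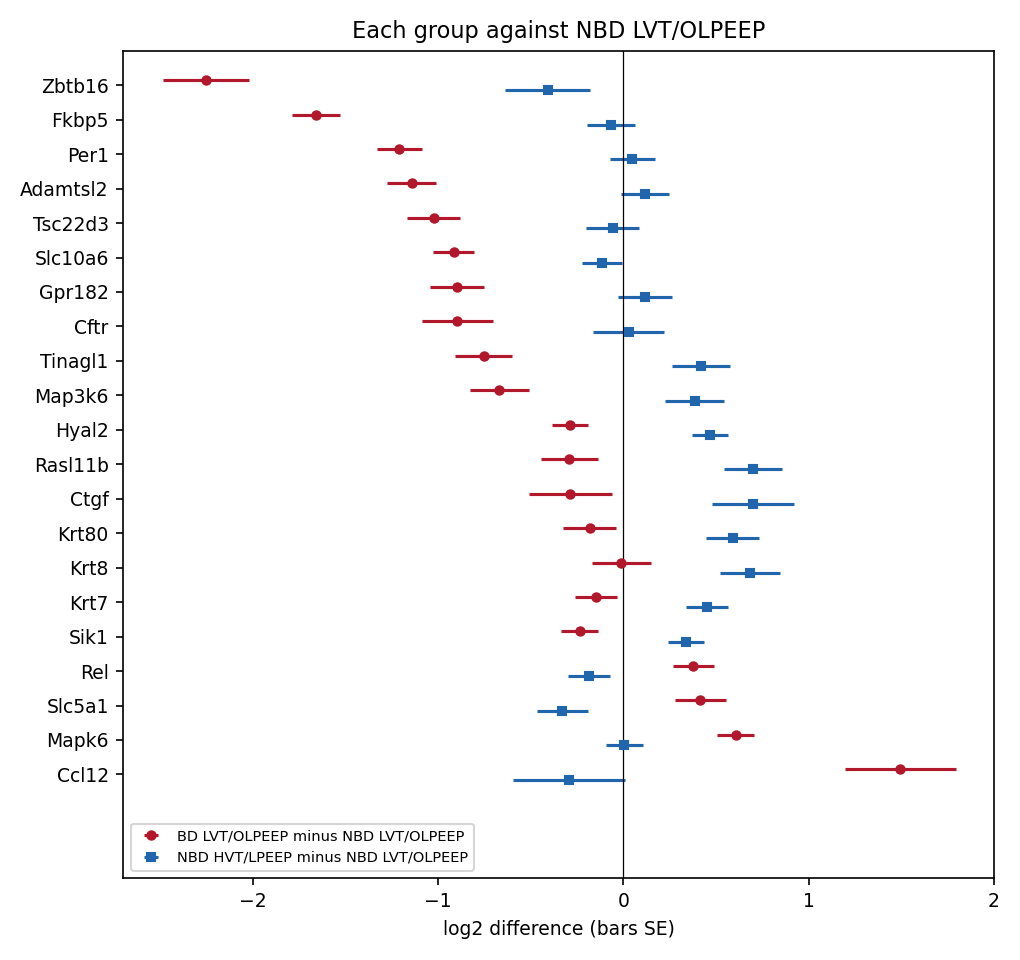
Difference from NBD LVT/OLPEEP (log2, horizontal, bars SE) of 21 genes in BD LVT/OLPEEP (red circles) and in NBD HVT/LPEEP (blue squares). Fkbp5 at -1.66 and Per1 at -1.21 are away from 0 in BD LVT/OLPEEP, and Rasl11b and Ctgf, each at 0.70, are away from 0 in NBD HVT/LPEEP, where no gene passed the test.

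For other lower genes the NBD HVT/LPEEP value lay farther from NBD LVT/OLPEEP than the BD LVT/OLPEEP value did, although none passed in NBD HVT/LPEEP. Rasl11b, a small GTPase, had values of 10.00, 10.28 and 10.66 in BD LVT/OLPEEP and of 10.95, 11.30 and 11.71 in NBD HVT/LPEEP, with no overlap (difference -0.99, SE 0.16, adjusted p = 0.00153). Relative to NBD LVT/OLPEEP it differed by -0.29 in BD LVT/OLPEEP (adjusted p = 0.483) and by 0.70 in NBD HVT/LPEEP (SE 0.16, adjusted p = 0.189). Hyal2, a hyaluronidase, fell by 0.76 in BD LVT/OLPEEP against NBD HVT/LPEEP (SE 0.10, adjusted p = 0.000164), and differed from NBD LVT/OLPEEP by -0.29 in BD LVT/OLPEEP and by 0.47 in NBD HVT/LPEEP (adjusted p = 0.195 and 0.159). It was chosen after its values were seen.

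Of 20 measured YAP and SRF target genes, 2 were lower (10%, beside 0.946% of all features) and 0 were higher. The median difference was -0.04 with all arrays, -0.06 without BD LVT/OLPEEP replicate 16 and -0.12 without NBD HVT/LPEEP replicate 12. Ctgf (now Ccn2), a matricellular protein induced by stretch, had values of 10.38, 11.08 and 11.76 in BD LVT/OLPEEP and of 11.56, 12.14 and 12.27 in NBD HVT/LPEEP. The groups overlapped through NBD HVT/LPEEP replicate 12, which was the low rat of its group. The difference was -0.99 (SE 0.22, adjusted p = 0.0293). Krt8, a keratin of simple epithelia, fell by 0.69 (SE 0.16, adjusted p = 0.0342). Neither passed without BD LVT/OLPEEP replicate 16 (adjusted p = 0.0807 for Ctgf and 0.0948 for Krt8), so that 0 members were called without it, and Krt8 did not pass without NBD HVT/LPEEP replicate 12 either (0.0757). Other members did not pass, among them Epha2, an ephrin receptor, at -0.72 (SE 0.18, adjusted p = 0.0509), with groups that did not overlap, and Cyr61, a second matricellular protein, at -0.69 (SE 0.25, adjusted p = 0.194). Of 11 measured stretch-gated channel genes and 17 EGF receptor ligand and feedback genes, none passed. Areg, an EGF receptor ligand, was at -0.74 (SE 0.24, adjusted p = 0.141), with all BD LVT/OLPEEP values below those of NBD HVT/LPEEP.

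Of the keratin genes other than Krt8, 3 are given here, chosen after their values were seen. Krt80 fell by 0.77 (SE 0.14, adjusted p = 0.00778), Krt7 by 0.60 (SE 0.11, adjusted p = 0.0101) and Krt19 by 0.53 (SE 0.13, adjusted p = 0.0384). Krt7 had values of 11.14, 11.31 and 11.64 in BD LVT/OLPEEP and of 11.71, 11.94 and 12.09 in NBD HVT/LPEEP, without overlap. Krt19 did not pass without BD LVT/OLPEEP replicate 16 (adjusted p = 0.101) or without NBD HVT/LPEEP replicate 12 (adjusted p = 0.0825), and Krt7 did not pass without both (adjusted p = 0.0554). Relative to NBD LVT/OLPEEP, Krt8 differed by -0.01 in BD LVT/OLPEEP and by 0.68 in NBD HVT/LPEEP (adjusted p = 0.988 and 0.246), Krt7 by -0.15 and 0.45 (0.646 and 0.253), and Krt80 by -0.18 and 0.59 (0.652 and 0.246).

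Ion and fluid transport genes of the alveolar epithelium were lower in part. Of 14 measured members, 2 were lower (14.3%, beside 0.946%), 0 were higher, and the median difference was -0.10. Without NBD HVT/LPEEP replicate 12 there were 4 lower members, and without BD LVT/OLPEEP replicate 16 there was 1. Cftr, the chloride channel mutated in cystic fibrosis, had values of 8.41, 8.93 and 9.18 in BD LVT/OLPEEP and of 9.13, 9.87 and 10.35 in NBD HVT/LPEEP. Of the BD LVT/OLPEEP rats 5 lay below all NBD HVT/LPEEP rats, and the difference was -0.93 (SE 0.19, adjusted p = 0.0171). Cftr did not pass with only the 12 arrays compared (adjusted p = 0.114). Scnn1a, the alpha subunit of the epithelial sodium channel, fell by 0.65 (SE 0.14, adjusted p = 0.0206) and did not pass without BD LVT/OLPEEP replicate 16 (adjusted p = 0.0584). The beta subunit Scnn1b was at -0.30 (SE 0.10, adjusted p = 0.154). Prss8, a protease that activates this channel, fell by 0.40 (SE 0.08, adjusted p = 0.0155) and was chosen after its values were seen. Nedd4l, a further member of the list, was at -0.31 (SE 0.10, adjusted p = 0.127). It differed from NBD LVT/OLPEEP by -0.54 in BD LVT/OLPEEP (adjusted p = 0.00893) and by -0.23 in NBD HVT/LPEEP (adjusted p = 0.276). Cftr differed from NBD LVT/OLPEEP by -0.90 in BD LVT/OLPEEP (adjusted p = 0.0267) and by 0.03 in NBD HVT/LPEEP (adjusted p = 0.957). Slc5a1, which encodes the sodium-glucose cotransporter SGLT1, went the other way. Its values were 9.63, 9.89 and 10.41 in BD LVT/OLPEEP and 9.04, 9.16 and 9.44 in NBD HVT/LPEEP, without overlap (difference 0.75, SE 0.14, adjusted p = 0.00795).

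Among 22 measured adrenergic and cAMP response genes, 2 were lower (9.09%, beside 0.946% of all features) and 0 were higher, and 1 was lower without either BD LVT/OLPEEP replicate 16 or NBD HVT/LPEEP replicate 12. Sik1, a kinase induced by cAMP, fell by 0.57 (SE 0.10, adjusted p = 0.00424), with no overlap between the groups. Adra1b, an alpha-1 adrenergic receptor, fell by 0.52 (SE 0.12, adjusted p = 0.0377), which did not pass without BD LVT/OLPEEP replicate 16 (adjusted p = 0.0847) or without NBD HVT/LPEEP replicate 12 (0.0825). Among 17 measured p53 target and BCL2 family genes 2 were called (11.8%, beside 1.19% of all features). Mdm2, the ubiquitin ligase of p53, rose by 0.31 (SE 0.06, adjusted p = 0.0152) and Bcl2l1, which encodes the survival protein BCL-XL, fell by 0.55 (SE 0.09, adjusted p = 0.00275). Neither gene overlapped between the groups, and Mdm2 did not pass without both BD LVT/OLPEEP replicate 16 and NBD HVT/LPEEP replicate 12 (adjusted p = 0.0534). Cdkn1a, a cell cycle inhibitor induced by p53, was at -0.58 (SE 0.16, adjusted p = 0.0734). Of 35 immediate early genes, Dusp1 was the only one called, and Egr1 was at -0.63 (SE 0.27, adjusted p = 0.276).

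Single genes of the endoplasmic reticulum were picked out after their values were seen. Alg5 and Alg3, which build the glycan precursor of N-glycosylation, fell by 0.46 (SE 0.06, adjusted p = 0.000266) and by 0.62 (SE 0.14, adjusted p = 0.0377). Alg3 did not pass without BD LVT/OLPEEP replicate 16 (adjusted p = 0.0881) or NBD HVT/LPEEP replicate 12 (0.0811). Sec61a1, the channel of the translocon, fell by 0.38 (adjusted p = 0.00891), and Mlec, a lectin for nascent glycoproteins, by 0.40 (adjusted p = 0.0152), and neither passed without both BD LVT/OLPEEP replicate 16 and NBD HVT/LPEEP replicate 12 (adjusted p = 0.0566 each). Alg5 values lay between 10.80 and 10.93 in BD LVT/OLPEEP and between 11.20 and 11.40 in NBD HVT/LPEEP. Of 20 measured unfolded protein and integrated stress response genes, none passed, and their median difference was -0.10.

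The largest called rise was that of a chemokine, but few inflammatory genes passed. Of 35 measured cytokine and chemokine genes, 1 was higher (2.86%, beside 0.244% of all features) and 0 were lower, with a median difference of 0.07 with all arrays and of 0.16 without NBD HVT/LPEEP replicate 12. Ccl12, a rodent chemokine that attracts monocytes, had values of 8.73, 9.89 and 10.71 in BD LVT/OLPEEP and of 7.61, 7.93 and 8.29 in NBD HVT/LPEEP. All BD LVT/OLPEEP rats were above all NBD HVT/LPEEP rats, and the difference was 1.79 (SE 0.30, 3.45-fold, adjusted p = 0.00312). It differed from NBD LVT/OLPEEP by 1.5 in BD LVT/OLPEEP (adjusted p = 0.0185) and by -0.29 in NBD HVT/LPEEP (adjusted p = 0.639).

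The other genes of the qPCR panel that the study chose did not pass between BD LVT/OLPEEP and NBD HVT/LPEEP. The qPCR differences that the study reports lay between BD HVT/LPEEP and BD LVT/OLPEEP, a pair not tested here. In BD HVT/LPEEP against NBD LVT/OLPEEP, Il6 was higher by 3.23 (SE 0.59, adjusted p = 0.000615) and Cxcl1 by 1.52 (SE 0.33, adjusted p = 0.00243). Ccl2, Tnf, Nos2, Sele, Vcam1, Hif1a and Hmox1 were also higher and passed there, whereas Casp1 and Angpt4 did not pass. The values that follow are for BD LVT/OLPEEP and NBD HVT/LPEEP. Il6 had values of 8.10, 9.41 and 10.85 in BD LVT/OLPEEP and of 8.02, 9.01 and 11.39 in NBD HVT/LPEEP, and the ranges covered each other (difference 0.09, SE 0.59, adjusted p = 0.961). The highest Il6 value of all 12 rats was that of NBD HVT/LPEEP replicate 12. Ccl2, a monocyte chemokine, was at 0.76 (SE 0.29, adjusted p = 0.215), Tnf at 0.57 (SE 0.32, adjusted p = 0.437), Cxcl1 at 0.30 (SE 0.33, adjusted p = 0.719) and Nos2, the inducible nitric oxide synthase, at 0.78 (SE 0.39, adjusted p = 0.367). The endothelial adhesion molecules Sele and Vcam1 were at 0.98 (SE 0.37, adjusted p = 0.209) and 0.46 (SE 0.25, adjusted p = 0.416). Hif1a was at 0.33 (SE 0.09, adjusted p = 0.0789), Hmox1 at 0.21, Casp1 at 0.10 and Angpt4 at -0.02. Hif1a passed when either of 2 single rats was left out, with a lowest adjusted p of 0.0417. With single rats left out, Cxcl1 ran from 0.15 (without NBD HVT/LPEEP replicate 34) to 0.55 (without replicate 12), Hmox1 from 0.06 (without NBD HVT/LPEEP replicate 19) to 0.32 (without replicate 12) and Casp1 from 0.01 (without NBD HVT/LPEEP replicate 34) to 0.25 (without replicate 10).

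Among 20 measured NF-kappaB signalling genes, Rel, which encodes the subunit c-Rel, was higher (5%, beside 0.244% of all features) and the other 19 did not pass, with a median difference of 0.20 over the list. Rel had values of 10.74, 11.20 and 11.35 in BD LVT/OLPEEP and of 10.45, 10.54 and 10.61 in NBD HVT/LPEEP, without overlap (difference 0.56, SE 0.11, adjusted p = 0.0136). Rel did not pass without both BD LVT/OLPEEP replicate 16 and NBD HVT/LPEEP replicate 12 (adjusted p = 0.0598) or with only the 12 arrays compared (0.0819), so that 0 members were then called. It differed from NBD LVT/OLPEEP by 0.38 in BD LVT/OLPEEP (adjusted p = 0.133) and by -0.19 in NBD HVT/LPEEP (adjusted p = 0.402). Traf6, a ubiquitin ligase of toll-like receptor signalling that was chosen after its values were seen, rose by 0.45 (SE 0.11, adjusted p = 0.039), but not without BD LVT/OLPEEP replicate 16 (adjusted p = 0.0948) or NBD HVT/LPEEP replicate 12 (0.078). The RefSeq window of Rel, shown as the one rise of this list, lies at chr14:101921889-101922188 on the minus strand of GRCr8. It holds the kappaB motif at 2 places, in capitals, in overlapping matches, and this motif was in 7.51% of all windows.
Rel: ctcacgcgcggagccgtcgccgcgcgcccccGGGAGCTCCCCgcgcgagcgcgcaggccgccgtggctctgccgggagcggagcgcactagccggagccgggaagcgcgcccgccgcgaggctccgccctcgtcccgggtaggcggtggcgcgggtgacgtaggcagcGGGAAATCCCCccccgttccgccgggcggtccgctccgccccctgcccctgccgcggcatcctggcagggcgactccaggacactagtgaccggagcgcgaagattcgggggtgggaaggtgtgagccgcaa

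The neutrophil alarmin S100a9 had values of 12.29, 12.52 and 12.59 in BD LVT/OLPEEP and of 10.83, 11.93 and 12.11 in NBD HVT/LPEEP, without overlap (difference 0.81, SE 0.20, adjusted p = 0.0452). It did not pass without BD LVT/OLPEEP replicate 16 (adjusted p = 0.0812). It was the 1 called member among 19 measured neutrophil markers (5.26%, beside 0.244% of all features), of which 15 had a difference above 0. The median of the list was 0.08 with all arrays, 0.14 without BD LVT/OLPEEP replicate 16 and 0.20 without NBD HVT/LPEEP replicate 12. The mean deviation of these markers lay between 0.02 and 0.23 in BD LVT/OLPEEP and between -0.55 and 0.38 in NBD HVT/LPEEP, and its part in the S100a9 difference was not tested. The members with the next lowest p were S100a8, the partner of S100a9, at 0.85 (SE 0.28, adjusted p = 0.152), Mmp8, a collagenase, at 0.57 (adjusted p = 0.148) and Ncf1, a subunit of the NADPH oxidase, at 0.49 (adjusted p = 0.129). Mpo and Elane, granule enzymes that define neutrophil precursors, were at 0.04 and -0.04.

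Xcl1, a chemokine of activated T and NK cells, had values of 8.91, 9.11 and 9.89 in BD LVT/OLPEEP and of 8.45, 8.63 and 8.69 in NBD HVT/LPEEP. The groups did not overlap, and the difference was 0.69 (SE 0.15, adjusted p = 0.0206). Tbx21, the transcription factor T-bet, rose by 0.71 (SE 0.17, adjusted p = 0.039) and Txk, a kinase of T cells, by 0.60 (SE 0.13, adjusted p = 0.0202), both chosen after their values were seen. None of the 20 measured T, B and NK cell markers passed, 14 of them had a difference above 0, and their median was 0.24. Gzmb and Prf1, which encode killing proteins of NK and cytotoxic T cells, were at 0.65 (SE 0.24, adjusted p = 0.202) and 0.48 (SE 0.17, adjusted p = 0.172). The mean deviation of the list lay between -0.30 and 0.47 in BD LVT/OLPEEP and between -0.56 and 0.30 in NBD HVT/LPEEP, and its part in these rises was not tested. None of 16 monocyte and macrophage markers, 26 interferon-stimulated genes and 16 MHC and antigen processing genes passed.

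Mapk6, which encodes the atypical kinase ERK3, had values of 10.86, 11.06 and 11.42 in BD LVT/OLPEEP and of 10.21, 10.56 and 10.60 in NBD HVT/LPEEP. The groups did not overlap, the lowest value was that of NBD HVT/LPEEP replicate 12, and the difference was 0.60 (SE 0.10, adjusted p = 0.00261) with this rat and 0.54 (adjusted p = 0.00682) without it. It differed from NBD LVT/OLPEEP by 0.61 in BD LVT/OLPEEP (adjusted p = 0.00353) and by 0.01 in NBD HVT/LPEEP (adjusted p = 0.984). Gab1, a docking protein of receptor tyrosine kinases, rose by 0.44 (SE 0.09, adjusted p = 0.0194), and Ppm1a, a phosphatase that acts on stress kinases, by 0.42 (SE 0.08, adjusted p = 0.00778). Prkci, an atypical protein kinase C, rose by 0.45 (SE 0.11, adjusted p = 0.0464) and by 0.31 without NBD HVT/LPEEP replicate 12, its low rat, and did not pass without BD LVT/OLPEEP replicate 16 (adjusted p = 0.0723). Dem1 (now Exo5), an exonuclease, rose by 0.70 (SE 0.16, adjusted p = 0.0262), and the RNA-binding protein gene Ewsr1 by 0.38 (SE 0.08, adjusted p = 0.0152).

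Of 37 called genes followed through the removal of each of the 24 rats, 13 lost their call at least once. Dusp1 did not pass without BD LVT/OLPEEP replicate 20 (adjusted p = 0.0552), Mdm2 without BD LVT/OLPEEP replicate 14 (0.0507) and Xcl1 without NBD HVT/LPEEP replicate 34 (0.0552). Gab1 was lost without either of 2 rats (up to 0.0588), Scnn1a without any of 3 (up to 0.0722), Dem1 without any of 4 (up to 0.09) and Hif3a without any of 6 (up to 0.0689), each with its highest adjusted p without BD LVT/OLPEEP replicate 14. Ctgf and Krt8 were lost without any of 7 rats (up to 0.0942 and 0.101, without BD LVT/OLPEEP replicate 14) and Adra1b without any of 9 (up to 0.104, without NBD HVT/LPEEP replicate 34). The calls closest to the threshold were those of S100a9, lost without any of 16 rats, and of Ddit4 and Prkci, lost without any of 20. Their highest adjusted p was 0.118 for S100a9 and 0.111 for Prkci, without BD LVT/OLPEEP replicate 14, and 0.122 for Ddit4, without NBD HVT/LPEEP replicate 34. Without both BD LVT/OLPEEP replicate 16 and NBD HVT/LPEEP replicate 12, calls that had held without either were also lost for Moxd1 and Rasd1 (adjusted p = 0.0672 each), Dusp1 and Prss8 (0.0815 each), Gab1 (0.0832), Igfbp3 (0.0598), Ewsr1 (0.058) and Klf15 (0.0505). Most calls needed the spread shared with the other 12 arrays, since 49 features (5 higher, 44 lower) were called with only the 12 arrays compared. Among the followed falls, the calls of Cftr, Scnn1a, Rasd1, Hif3a, Ddit4, Moxd1, Ctgf, Krt8 and Adra1b were then lost. Among the followed rises reported here, those of Rel, Xcl1, Dem1, Ppm1a, Ewsr1, Mdm2, Prkci and S100a9 were lost. Pgf and the genes chosen only after their values were seen were not among the 37 followed. Their calls in this setting are therefore not given.

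The BD HVT/LPEEP and NBD LVT/OLPEEP arrays, which took no part in the difference between the groups but shared its estimate of the spread, allowed the same features to be read in other rats. This comparison was chosen after the data were seen. It sets both insults together against neither, so that brain damage stood on the same side as in BD LVT/OLPEEP against NBD HVT/LPEEP and ventilation on the opposite side. Over all features 1738 were higher (9.03%) and 1925 lower (10%) in BD HVT/LPEEP than in NBD LVT/OLPEEP. Of the 47 features higher in BD LVT/OLPEEP, 25 were also higher in BD HVT/LPEEP, 2 were lower and 20 did not pass, and the 25 were 53.2% of the 47 and 1.44% of all higher features in BD HVT/LPEEP. Of the 182 lower features, 105 were also lower in BD HVT/LPEEP, 3 were higher and 74 did not pass, and the 105 were 57.7% of the 182 and 5.45% of all lower features in BD HVT/LPEEP. Zbtb16 differed by -3.12 (SE 0.23, adjusted p = 5.62e-08) in BD HVT/LPEEP against NBD LVT/OLPEEP, Fkbp5 by -1.64 (SE 0.13, adjusted p = 1.18e-07), Per1 by -1.38 (adjusted p = 2.39e-07) and Ccl12 by 2.64 (SE 0.30, adjusted p = 4.63e-06). Of the other called glucocorticoid-induced genes, Tsc22d3 (-1.33), Hif3a (-1.07) and Map3k6 (-0.60) also passed. Dusp1 at -0.12 (adjusted p = 0.605), Ddit4 at -0.05 (0.841) and Rasd1 at 0.31 (0.0616) did not. Cftr at -0.10 (0.774), Ctgf at -0.02 (0.96) and Rasl11b at 0.44 (0.0517) did not pass either.

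The 5 features that passed in opposite directions were F2rl1, Slc5a1, Krt8, Adora2b and Abca15. Krt8 was at -0.69 in BD LVT/OLPEEP against NBD HVT/LPEEP and at 0.78 in BD HVT/LPEEP against NBD LVT/OLPEEP (adjusted p = 0.00163), so that it was higher in the high tidal volume group in both. F2rl1, a protease-activated receptor, was at -0.53 (adjusted p = 0.0202) and 0.42 (adjusted p = 0.0122), and Adora2b, an adenosine receptor, at -0.58 (adjusted p = 0.0228) and 0.45 (adjusted p = 0.0142). Slc5a1 was at 0.75 and -0.43 (adjusted p = 0.0316), and was thus higher in the low tidal volume group in both. Abca15, a transporter of the ABC family, was at 0.15 (adjusted p = 0.0169) and -0.10 (adjusted p = 0.0273). Without BD LVT/OLPEEP replicate 16, Krt8 (adjusted p = 0.0948), F2rl1 (0.0503) and Adora2b (0.0661) did not pass in BD LVT/OLPEEP against NBD HVT/LPEEP, and Krt8 did not pass without NBD HVT/LPEEP replicate 12 (0.0757).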

How the data were processed

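Right lung tissue of 24 male Wistar rats was measured on Affymetrix arrays, with groups as the labels give them. The table that the authors deposited holds log2 values. Their sorted values were identical on all arrays, so they are quantile-normalized, which removes any difference in overall RNA between arrays. For background correction and probe summary, the method was not given in the sources used here, and neither scanner signals nor the qPCR were used, so no signal over background is known. The log2 values were used as deposited. Features were named from the platform annotation, and 16420 of 16453 features with a current gene identifier had the same symbol or a synonym there.

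With R 4.3.3 and limma 3.58.1, the 4 group means were fitted to each feature (lmFit and eBayes, 20 residual degrees of freedom, two-sided), with Benjamini-Hochberg adjustment over 19239 features at 0.05 and Holm's correction, which the methods name with an ANOVA, beside it. The fit was tested on simulated data. The 50 gene lists and the genes were chosen with earlier results of these data known. Genes named are the 12 largest rises and falls among called features without overlap, for each list up to 4 members of lowest p and called members that go against it, the qPCR genes and the 4 muscle genes highest in BD LVT/OLPEEP replicate 16; others are marked where named, except further called list members and Sgk1, Klf9, Cyr61, Mpo and Elane, which were added after their values were seen, and the text gives only part of the list members that the rule names. Of the 12 largest rises, 1 is not reported here. No list was tested as a set. Alternatives were the 12 arrays alone, other moderation, array weights, cyclic loess, median centring, leaving out the 40% dimmest features, Holm's correction, animal number as a covariate, a 1.5-fold threshold, and leaving out each rat or the 2 arrays that stood apart. The labels number each rat separately, p-values measure the spread between these arrays, and 6 rats a group limit the precision.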

Additional observations from a re-analysis of the deposited data

Results flagged for a closer look

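Among 112 groups of 6 rats examined, 16 had 1 rat far from the other 5, its gap to the nearest rat being large relative to the whole range of the group. Chance alone gives this in about 1 in 20 groups, and genes on 1 array are not independent.

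In BD LVT/OLPEEP, the mean of skeletal muscle markers was 3.1246 in replicate 16 (next rat 0.0986), the mean of immediate early genes was -0.401749 in replicate 20, Map3k6 was 10.6288 in replicate 7, Cxcl1 was 10.0253 in replicate 20 and Tnf was 11.2606 in replicate 18. In NBD HVT/LPEEP, replicate 12 was low for Mapk6 (10.2093), Prkci (10.399), Ppm1a (10.2478), Zbtb16 (10.3623) and Ctgf (11.5571), and high for Dusp1 (13.1889) and for the mean of immediate early genes (0.538347). In the same group Map3k6 was high in replicate 13 (11.4535), Tsc22d3 was low in replicate 10 (9.98909), and in replicate 34 the means of skeletal muscle markers (0.250055) and of cardiac muscle markers (1.39083) were high.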

How the results depend on the processing

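No paired analysis was possible because the animal numbers in the labels are unique to each rat and are shared by no groups. The main counts were 47 features higher and 182 lower in BD LVT/OLPEEP. They were 5 and 44 with only the 12 arrays compared, 30 higher without moderation, 75 higher with cyclic loess, 74 higher with animal number as a covariate, 0 and 25 with Holm's correction, 12 and 47 with the 1.5-fold threshold, and 16 and 77 without the 2 arrays that stood apart. With single rats left out they were 12 to 104 higher and 74 to 298 lower, with the lowest total, 86, without BD LVT/OLPEEP replicate 14 and the highest, 402, without NBD HVT/LPEEP replicate 10. The total of 229 was also moved by over 1.5 times without BD LVT/OLPEEP replicate 20 (116) or 16 (123) and without NBD HVT/LPEEP replicate 34 (122) or 33 (152). The cause was not tested, apart from the fewer samples or stricter threshold. Lower glucocorticoid-induced genes numbered 6 (without BD LVT/OLPEEP replicate 20) to 11 (without NBD HVT/LPEEP replicate 10) with single rats left out, and 5 with Holm's correction. Of 37 called named genes followed, 24 kept their call without each rat, 17 did so under all settings but Holm's correction and the 1.5-fold threshold, and 0 changed direction. Il6, not called, ran from -0.19 to 0.50 with single rats left out and was -0.341353 with animal number as a covariate, where Cxcl1 was -0.00280328. Angpt4 ran from -0.0568 (without NBD HVT/LPEEP replicate 12) to 0.0263 (without NBD HVT/LPEEP replicate 34), against -0.02 with all rats.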
